A study of Mus musculus with 4 samples.

Results

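Regions in which a methylation peak was called in both βRapKO islet libraries and in neither WT islet library were examined. Peaks of the 4 deposited libraries on chromosomes 1 to 19 were joined where they shared at least 1 bp, which gave 180857 merged regions. Of these, 2876 held a peak in βRapKO replicates 1 and 2 and none in WT replicates 1 and 2, and they are called the βRapKO-only regions here. They were 1.59% of the merged regions and covered 3.31 Mb. The regions were chosen by the peak calls of all 4 libraries, so the calls, tags, scores and positions below are a description, and no test was made on them.

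The data came from methylated DNA immunoprecipitation sequencing (MeDIP-seq) of handpicked pancreatic islets from C57BL/6 mice 8 weeks old, with 2 libraries per genotype. Both groups carried the Raptor lox/lox alleles. The βRapKO mice carried in addition RipCre, in which the rat insulin promoter drives Cre and which came from a line of mixed strain origin, and their littermates without Cre served as WT, so that loss of Raptor and presence of Cre cannot be told apart. Deletion is directed at beta cells, while handpicked islets also hold alpha, delta and other cells, and the labels do not say whether the 2 libraries of a group came from separate animals or pools.

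Raptor is the subunit of mTORC1 that recruits its substrates, and mTORC1 couples nutrients and growth factors to protein synthesis and growth. In mammals, DNA methylation sits mostly on CpG sites: DNMT3A and DNMT3B place it, and DNMT1 copies it to the new strand when DNA is replicated. In beta cells, methylation has been linked to the silencing of disallowed genes, which are active in most tissues and kept off in mature beta cells. In MeDIP-seq an antibody against methylated cytosine pulls down sheared DNA, and places with many methylated CpG sites yield more tags. A peak is a stretch where the tags exceeded those expected from the surrounding 10000 bp.

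After removal of duplicates the libraries held between 25585533 and 31330751 tags, and between 117638 and 151093 peaks were called. WT replicate 2 stood apart with the most tags, the most peaks and the shortest estimated fragment, 238 bp against 269 to 283 bp in the other 3 libraries. Tags outside peaks were not used here. A region without a call in WT therefore has no WT value, and the absence of a WT peak does not show an absence of methylation there. Of 9 genes typical of islet endocrine cells, Ins2, G6pc2, Mafa and Gcg had peaks and none had a βRapKO-only region. Since a peak marks methylated DNA and not activity of a gene, this does not check the tissue.

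The 4 stretches of DNA shown here were picked and do not stand for the βRapKO-only regions as a whole. Of those regions, 67.8% held 1 to 2 CpG sites per 100 bp and 1.15% held 3 or more. Shown first, with CpG sites in capitals and in the plus strand of GRCm38 (mm10), are 300 bases around the middle of the 2 βRapKO summits in 3 regions. These are the region with the most CpG sites per 100 bp, the region over a transcription start window with the highest lower score, and the region outside genes with the highest lower score. The fourth is the stretch of 250 bases before the start of Pck1 (RefSeq, GRCm38.p6), which one of the strongest βRapKO-only regions covered.
CpG-densest region, chr4:122712869-122713168: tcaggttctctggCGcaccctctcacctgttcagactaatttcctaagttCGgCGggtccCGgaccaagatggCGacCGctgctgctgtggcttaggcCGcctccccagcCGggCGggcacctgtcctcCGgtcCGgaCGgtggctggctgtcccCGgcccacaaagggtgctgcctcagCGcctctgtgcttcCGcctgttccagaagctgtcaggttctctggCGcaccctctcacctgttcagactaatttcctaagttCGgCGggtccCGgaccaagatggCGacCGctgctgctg
At Pramel4, chr4:144064091-144064390: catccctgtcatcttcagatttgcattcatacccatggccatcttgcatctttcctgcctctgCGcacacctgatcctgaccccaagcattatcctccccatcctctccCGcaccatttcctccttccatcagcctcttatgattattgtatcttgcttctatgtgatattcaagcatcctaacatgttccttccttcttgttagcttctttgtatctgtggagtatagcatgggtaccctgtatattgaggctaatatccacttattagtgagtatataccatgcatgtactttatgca
Outside genes, chr15:91943215-91943514: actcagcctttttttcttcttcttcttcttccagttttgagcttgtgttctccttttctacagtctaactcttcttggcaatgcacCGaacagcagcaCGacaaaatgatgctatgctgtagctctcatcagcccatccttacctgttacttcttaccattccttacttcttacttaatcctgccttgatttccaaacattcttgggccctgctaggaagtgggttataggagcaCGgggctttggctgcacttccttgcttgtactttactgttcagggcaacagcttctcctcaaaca
Before the Pck1 start, chr2:173152823-173153072: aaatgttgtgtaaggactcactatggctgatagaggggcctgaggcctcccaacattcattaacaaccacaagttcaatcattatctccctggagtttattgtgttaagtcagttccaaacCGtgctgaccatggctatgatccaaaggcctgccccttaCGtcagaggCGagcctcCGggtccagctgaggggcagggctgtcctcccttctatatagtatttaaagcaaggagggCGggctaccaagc
The 4 stretches held 21, 2, 3 and 5 CpG sites. In the CpG-densest one, a stretch of 88 bases recurred exactly 212 bases downstream of its first copy. The whole of that region, on chromosome 4 from 122712136 to 122713746, was marked as repeat in the reference, and it held 5.28 CpG sites per 100 bp. It had 47 tags in βRapKO replicate 1 and 58 in replicate 2, and a WT peak lay 575 bp away.

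The βRapKO-only regions were weakly enriched, and the 2 βRapKO libraries gave them similar levels. In βRapKO replicate 1 a region held from 24 to 524 tags with a median of 38, and in replicate 2 from 25 to 546 with a median of 39. As CPM, the number of tags per 1000000 tags left after removal of duplicates, the medians were 1.30 and 1.34. The medians of the 4-library regions, which had a peak in every library, were 2.22 and 2.37 CPM in the same libraries. Regions called in exactly 1 library of each genotype had βRapKO medians of 1.30 CPM for replicate 1 and 1.34 for replicate 2. Regions called in both WT libraries alone had WT medians of 1.37 and 1.28 CPM. Low levels were thus not particular to the βRapKO-only regions. CPM agreed within 1.5-fold between the βRapKO libraries in 2653 regions, which was 92.2% of them, and differed by more than 2-fold in 31. The rule required a call in both, and the lowest values were 0.821 and 0.857 CPM, near the medians. This narrows the range, so the agreement is a description of chosen regions. Across the 2876 regions the Pearson correlation of log2 CPM between both libraries was 0.798, given as a description since both values follow the width of the region. The corresponding value over the 72519 regions called in all 4 libraries was 0.914.

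**Figure D1:**
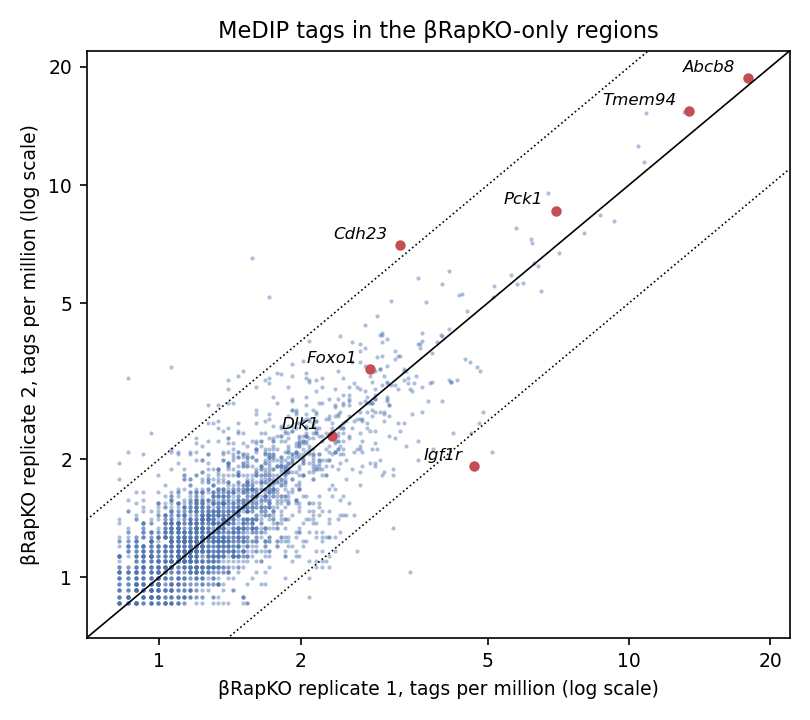
CPM in βRapKO replicate 1 (x axis, log scale) and replicate 2 (y axis, log scale) of the 2876 βRapKO-only regions, 1 point per region. The solid line marks equal values and the dotted lines a 2-fold difference, and 7 regions named in the text are red. Most points sit close to the lowest CPM at which peaks were called, and Cdh23 and Igf1r lie outside the 2-fold lines on opposite sides.

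The position of the 2 peaks agreed closely as well. In 2869 regions each βRapKO library had exactly 1 peak, and 99.7% of these pairs overlapped over at least 50% of the shorter peak. The summits lay a median of 28 bp apart, and 82.3% were within 100 bp. Pairs of a WT and a βRapKO library that alone shared a region had summits a median of 26 to 29 bp apart, so the βRapKO pair was not closer than the mixed pairs.

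Most βRapKO-only regions stood just inside the threshold of the caller. The caller score is the log10 of the p-value times 10 with its sign reversed, and peaks were kept from a score of 50. The median score was 65.7 in βRapKO replicate 1 and 65.35 in replicate 2, at percentiles 24.5 and 23.0 of all peaks of these libraries. Both scores reached 60 in 1259 regions (43.8%), 100 in 43 regions and 150 in 1 region. Among regions called in all 4 libraries, both βRapKO scores reached 100 in 51.4%. Regions called in exactly 1 library of each genotype had median βRapKO scores of 64.1 to 65.4, so these low scores were shared. The lowest scores inside were 50.01, 50.01 and 50.02, in a region outside genes 7763 bp from Btg1, over exons 9 to 10 of Diexf and within an intron of Tmem131l.

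The share of βRapKO-only regions fell off with the strength of the peaks. Among the 86180 regions called in both βRapKO libraries, 3.34% had no WT peak. The share was 11.1% where the lower βRapKO score was 50 to 60, then 4.94%, 1.60% and 0.240% for 60 to 80, 80 to 100 and 100 to 150. Of the 7906 regions with a lower score of 150 to 200 only 1 was βRapKO-only, and of the 12557 regions with a lower score of 200 or more there was none. The mirrored share, regions of both WT libraries without a βRapKO peak, ran from 24.9% at 50 to 60 to 1.37% at 100 to 150.

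**Figure D2:**
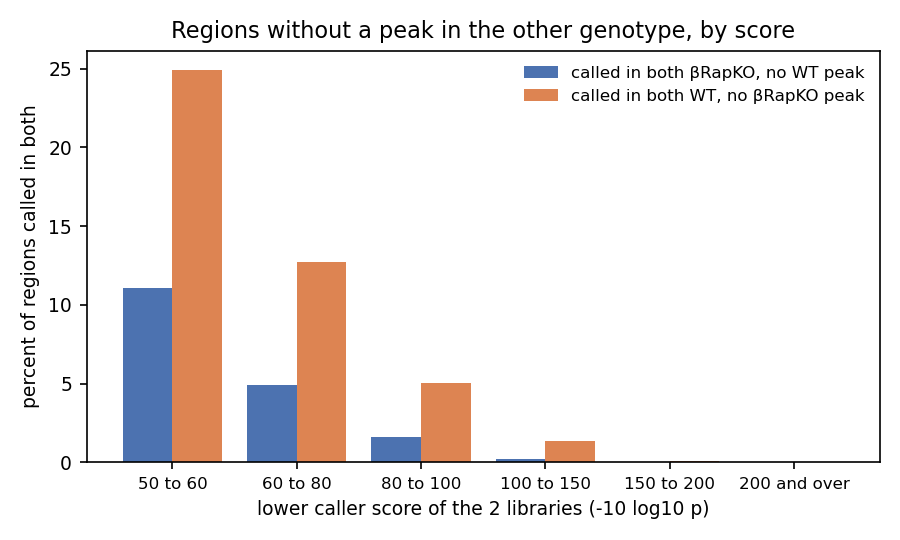
Percent of regions called in both libraries of a genotype that had no peak in the other genotype (y axis), by the lower caller score of the 2 libraries (x axis), in blue for βRapKO and in orange for WT. In blue the share drops from 11.1% in the lowest class to 0.240% at 100 to 150, and the orange bars are higher in the 4 classes below 150, above which both shares are too small to see.

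The number of βRapKO-only regions was close to that of regions that WT replicate 1 alone shared with 1 βRapKO library. It was larger when WT replicate 2 was held to the same number of peaks as the other libraries. WT replicate 1 and βRapKO replicate 1 alone shared 2939 regions (1.63%), and WT replicate 1 and βRapKO replicate 2 shared 2850 (1.58%). The 3 pairs that contained WT replicate 2 were larger, with 7580 WT-only regions (4.19%), 6363 shared with βRapKO replicate 1 (3.52%) and 7555 shared with βRapKO replicate 2 (4.18%). With the 117638 highest-scored peaks of each library, which raised the lowest score in WT replicate 2 to 66.58, the βRapKO-only regions numbered 4830 and the WT-only regions 4503. The 4 mixed pairs then held 4118 to 4721 regions. Of the 2876 βRapKO-only regions, 2777 (96.6%) overlapped one of these 4830. Without WT replicate 2 the same rule gave 10696 regions and without WT replicate 1 it gave 5933, so that the members were 26.9% and 48.5% of those.

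**Figure D3:**
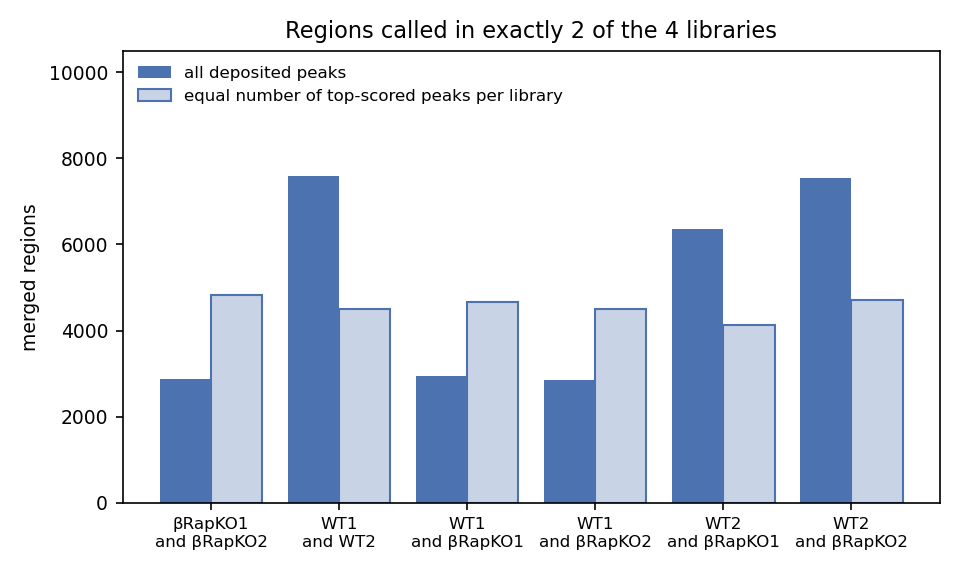
Number of merged regions (y axis) called in exactly 2 of the 4 libraries, by pair of libraries (x axis), with all deposited peaks (dark bars) and with an equal number of top-scored peaks per library (light bars). With all peaks the 3 pairs that contain WT replicate 2 stand highest and βRapKO-only is at 2876, while with equal numbers of peaks the 6 pairs lie between 4118 and 4830.

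A WT peak was usually close by. The gap from a βRapKO-only region to the nearest WT peak had a median of 3976 bp, and a WT peak lay within 1000 bp of 495 regions (17.2%) and within 10000 bp of 2349 (81.7%). For WT-only regions and the nearest βRapKO peak the median gap was 4000.5 bp. The shortest gaps were 3, 5 and 11 bp, in an intron of Slc9a9, outside genes and in an intron of Efcab5. On the other side of the rule, the shortest overlaps with a WT peak that kept a region out were 18, 21 and 31 bp, all with WT replicate 1, on chromosomes 13, 7 and 6.

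CpG sites were sparser in βRapKO-only regions than in regions called in all libraries. The median was 1.40 CpG sites per 100 bp, with an exact 95% interval of 1.38 to 1.42 that covers sampling of regions only. All merged regions had a median of 1.58, WT-only regions 1.49, the 4 mixed pairs 1.33 to 1.52 and 4-library regions 1.76. Of the merged regions with under 1 CpG site per 100 bp, 2.28% were βRapKO-only, and of those with 3 or more, 0.528% were. WT-only regions took 5.05% and 2.29% of the same classes. With only peaks of a score of at least 100 the rule gave 1120 regions with a median of 1.58, but 1077 of these overlapped no βRapKO-only region as defined here, and 43 did.

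**Figure D4:**
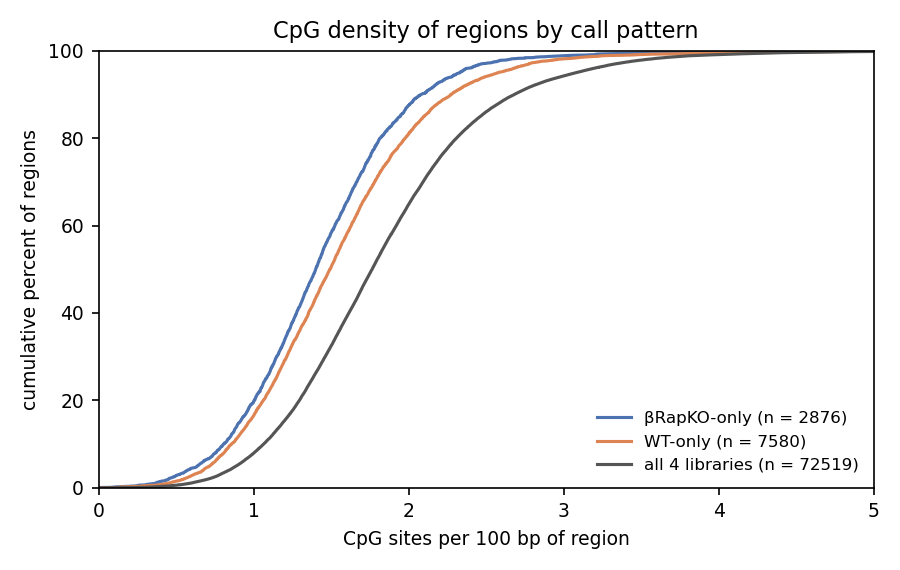
Cumulative percent of regions (y axis) by CpG sites per 100 bp (x axis) for βRapKO-only, WT-only and 4-library regions. The βRapKO-only curve lies furthest to the left, with medians of 1.40, 1.49 and 1.76.

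Only 33 βRapKO-only regions held 3 or more CpG sites per 100 bp, and 16 of these were at least 80% repeat. Over all regions of that density the repeat share was 50.4%. The 5 regions with the most CpG sites per 100 bp were between 78.8% and 100% repeat. One of them, on chromosome 13 from 33372955 to 33374947, differed in level between the libraries, with 1.40 CPM in βRapKO replicate 1 and 3.19 in replicate 2 and scores of 60.96 and 211.12. Tags from near-identical copies of a repeat cannot be placed with certainty, so levels there are uncertain. In all, 144 βRapKO-only regions (5.01%) were at least 80% repeat, against 10897 of the 72519 4-library regions. The share was 5.18% for WT-only regions and ran from 4.42% to 9.12% for the mixed pairs. A low share of such repeat regions was thus not particular to the βRapKO-only regions.

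The regions had a median width of 1039 bp, from 407 to 6717 bp. Only 29 (1.01%) were 3 kb or wider, against 7.79% of 4-library regions and 0.976% of WT-only regions. They were spread over all 19 chromosomes, from 1.30% of the merged regions on chromosome 3 to 1.84% on chromosome 13. Another βRapKO-only region lay within 100 kb of 685 regions (23.8%) and within 5 kb of 34. The longest run with steps of up to 100 kb held 5 regions over 286 kb in Ank3, which encodes ankyrin-G, an adaptor that ties membrane proteins to the cytoskeleton.

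Relative to genes, 1170 βRapKO-only regions (40.7%) lay outside protein-coding and long noncoding RNA genes and their upstream 2 kb, 1019 (35.4%) in introns and 388 (13.5%) over exons. Another 121 (4.21%) overlapped a start window, from 2 kb upstream to 500 bp downstream of an annotated start of a protein-coding gene. The exact 95% interval of this last share, 3.50 to 5.01, covers sampling of regions only. With 1 library left out the share ran from 3.47% to 4.27%. The corresponding shares of all merged regions were 40.6%, 31.4%, 17.7% and 3.94%, and of WT-only regions 38.2%, 34.3%, 17.3% and 3.97%. Starts of principal transcripts themselves were covered by 14 βRapKO-only regions (0.487%), against 0.660% of WT-only and 1.02% of 4-library regions.

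The strongest regions by tags were wide, and 8 of the first 10 lay over a protein-coding gene. The region with the most tags, on chromosome 5 from 24397089 to 24403218, spanned exons 3 to 10 of Abcb8, which encodes a transporter of the inner mitochondrial membrane, with 524 and 546 tags in βRapKO replicates 1 and 2. Just 971 bp downstream, a second region covered exons 11 to 17 and the end of the gene, with 382 and 447 tags, 13.1 and 15.3 CPM. Together they took up most of the gene, and no WT peak lay from −1.36 to 22.7 kb of the Abcb8 start. On both sides, all 4 libraries had peaks. The region from 22.7 to 27.9 kb held 10.3 and 13.1 CPM in the WT and 9.41 and 8.88 CPM in the βRapKO libraries. Enrichment over the local background was only 3.45-fold in both libraries in the upstream Abcb8 region and 3.44-fold and 2.91-fold in the downstream one, below the medians of 5.95 and 5.89 over all βRapKO-only regions.

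**Figure D5:**
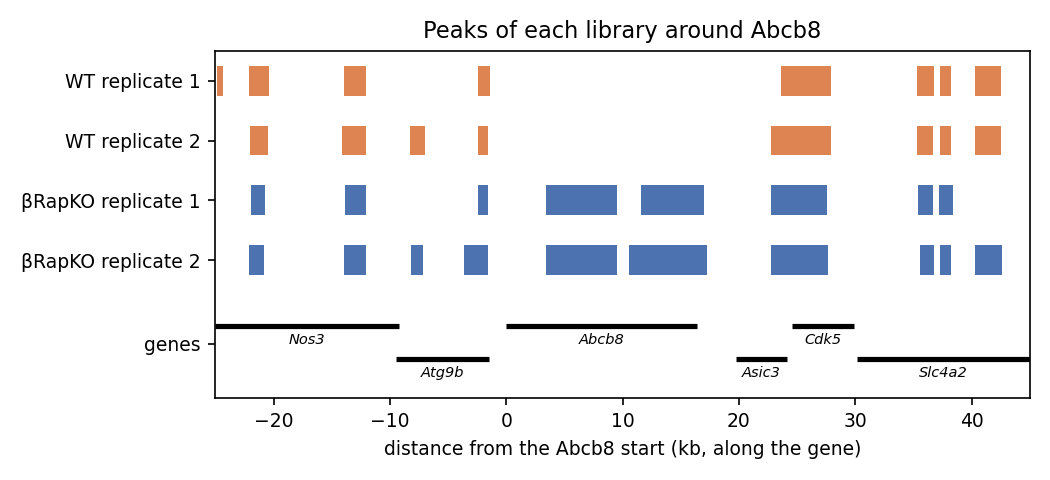
Peaks of the 4 libraries (bars, 1 row per library) by distance from the Abcb8 start in kb along the gene (x axis), with protein-coding genes as black bars below. The 2 wide βRapKO peaks over Abcb8 have no counterpart in either WT library, while all 4 libraries have peaks upstream of the gene and over Cdk5.

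Most of the 10 regions with the highest mean CPM also had low enrichment. All were at least 3603 bp wide, with at least 196 tags, and their median fold enrichment was 3.87 and 3.78 in the 2 libraries, with scores from 51.43 to 206.2. The exception was the Slc39a11 region with 5.60-fold and 5.89-fold, close to the medians over all βRapKO-only regions. Besides Abcb8 they covered exons 7 to 18 of Tmem94 with 393 and 450 tags, exons 65 to 75 of Hspg2, which encodes the basement membrane proteoglycan perlecan, with 317 and 445, and a start window of Unkl with 314 and 333. Others lay in introns of the zinc transporter gene Slc39a11 and of Mfsd6. A region 48056 bp from Ntrk2 overlapped a long noncoding RNA gene or the 2 kb upstream of one. Another lay outside genes, 29252 bp from the histone deacetylase gene Hdac4. Tmem94 had scores of only 61.43 and 62.36, and a neighbouring 4-library region of 6356 bp held 19.1 and 21.7 CPM in WT and 15.1 and 16.3 CPM in βRapKO.

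The remaining region of these 10 covered the start of Pck1. Pck1 encodes the cytosolic phosphoenolpyruvate carboxykinase, the enzyme that commits carbon to gluconeogenesis. The region ran on chromosome 2 from 173152413 to 173156015 over the start and exons 1 to 6 of 10. It held 204 tags, or 6.98 CPM, in βRapKO replicate 1 and 251 tags, or 8.60 CPM, in replicate 2, with scores of 68.19 and 103.33. The stretch printed above, before the start, held 5 CpG sites, and the whole region held 79. The only other merged region at Pck1, 1695 bp downstream, was called in WT replicate 2 alone with 4.60 CPM. Upstream, a region from −12.1 to −10.6 kb of the start was called in all 4 libraries, with 84 and 111 tags in WT and 89 and 88 in βRapKO. Between it and the start, a region was called in WT replicate 1 with βRapKO replicate 2, and 2 regions farther upstream were called in WT replicate 2 alone. Downstream, merged regions were called in WT replicate 1 with βRapKO replicate 1 and in βRapKO replicate 1 alone.

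By score, the strongest regions over start windows were smaller. The highest lower score, 106.25, was at Pramel4, with 29 and 41 tags over 785 bp that contained 2 CpG sites in all. The region on chromosome 9 from 76545151 to 76546979 covered a start of Fam83b with 62 and 78 tags and scores of 101.79 and 141.79. At Cox7b2, which encodes a cytochrome c oxidase subunit, a region of 893 bp over the start site and exon 1 held 41 and 40 tags. At Psmc1, which encodes an ATPase of the proteasome, a region 1103 bp upstream of the gene held 36 and 58. Regions upstream of Mcpt8, a protease gene of basophils, and of Epsti1, Them7, Gm20765 and Plpp5 had between 28 and 62 tags in each library.

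A region at Foxo1 was the widest of these 10. Foxo1 encodes a transcription factor that insulin signalling keeps out of the nucleus. The region ended 1351 bp upstream of the gene, on chromosome 3 from 52263465 to 52266985, with 82 tags in βRapKO replicate 1 and 99 in replicate 2. A further βRapKO-only region lay in an intron of Foxo1 with 45 and 49 tags. Foxo1 had 6 merged regions, of which none was called in all 4 libraries.

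Of the 43 regions with both scores of at least 100, 21 lay outside genes and 2 over a start window. The highest lower score outside genes was found on chromosome 15 from 91942136 to 91943906, 80698 bp from Smgc, with 75 and 70 tags and scores of 135.53 and 141.07. Of the next 4, on chromosomes 3, 14, 10 and 15, fold enrichments in βRapKO replicate 1 were 9.28, 10.71, 9.28 and 6.66. The regions on chromosome 3 and the second on chromosome 15 were 79.9% and 98.3% repeat.

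In all, 1371 protein-coding genes carried a βRapKO-only region in the body or the 2 kb upstream, 8.25% of the 16624 genes with any merged region, and 3200 (19.2%) carried a WT-only region. Both kinds occurred in 579 genes. Long genes dominated: the median length was 91.1 kb for the 1371 genes and 24.5 kb for all genes with a region, and they held a median of 11 merged regions against 3. One βRapKO-only region was found in 1204 genes, 2 in 130 and 3 or more in 37.

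The largest number was in Gm20388, an annotated read-through model of 4435 kb that overlaps many genes, with 10 of its 611 merged regions. Ank3 and Cacna1d held 5 each, of 97 and 65, with 0 and 1 WT-only regions. Creb5, Gpc6, Phactr1, Rbfox1, Sdk1 and Tenm3 held 4 each, of 42 to 135 merged regions, beside 1 to 9 WT-only regions. Cdkal1, a tRNA-modifying enzyme known from genetic studies of type 2 diabetes, held 3 beside 5 WT-only regions.

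Genes of glucose sensing and insulin secretion were examined by list. Of 21 such genes with a merged region, 7 (33.3%) had a βRapKO-only region and 7 had a WT-only region, beside 8.25% and 19.2% of all genes. Counted by regions, 12 of 280 (4.29%) were βRapKO-only and 12 were WT-only, beside 1.59% and 4.40% of the regions at all protein-coding genes. Cacna1d and Cacna1c, which encode the pore subunits of L-type calcium channels that open when beta cells depolarise, accounted for 5 and 2 of the 12. They also held 1 and 3 of the WT-only regions. The βRapKO-only regions of Cacna1d held 26 to 36 tags in βRapKO replicate 1 and 27 to 41 in replicate 2, near the smallest numbers called. The highest CPM was at exon 2 of Glp1r, the receptor for the incretin GLP-1, where the libraries differed with 53 and 96 tags. At Rab27a, a small GTPase that docks insulin granules, exon 3 was covered with 44 and 45 tags.

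Beta cell identity factors gave smaller numbers. Of 15 with a region, 3 (20%) had a βRapKO-only region and 3 a WT-only region, beside 8.25% and 19.2% of all genes. By regions, 4 of 110 (3.64%) were βRapKO-only, beside 1.59% at all protein-coding genes. Besides Foxo1 these were St18, with 39 and 30 tags in a region 93.2% repeat, and Rfx6, a factor required for islet development, with 30 and 37 tags over exon 17 of 19. The Rfx6 region was the only merged region of that gene. Among genes of immature beta cells, alpha cells and progenitors, 2 of 13 had a βRapKO-only region, Dlk1 and Gata4, and 2 had a WT-only region.

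Of 37 disallowed genes with a region, 2 (5.41%) had a βRapKO-only region and 12 (32.4%) a WT-only region, beside 8.25% and 19.2% of all genes. By regions these were 2 (0.806%) and 19 (7.66%) of 248, beside 1.59% and 4.40% at all protein-coding genes. The study singled out some of these genes, Dlk1 among them, on these same libraries, so the list is not independent evidence of a direction. Dlk1, an imprinted gene for a Notch-like membrane protein of immature cells, was covered in exon 6 of 6 with 68 and 67 tags, 2.33 and 2.30 CPM and scores of 50.99 and 56.64. A WT peak lay 969 bp away, and WT-only regions lay on both sides, from −16.1 and from 14.7 kb of the Dlk1 start. Itih5, which encodes a hyaluronan-binding secreted protein, was covered in an intron with 41 and 40 tags and scores of 61.69 and 56.06. Both genes stood near the score threshold, and Itih5 also had 2 WT-only regions.

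In the mTORC1 and insulin signalling list, 4 of 39 genes (10.3%) had a βRapKO-only region and 13 (33.3%) a WT-only region, beside 8.25% and 19.2% of all genes. By regions the shares were 1.25% and 4.69%, beside 1.59% and 4.40%. The 4 genes were Igf1r, the receptor for IGF-1, Rictor, the defining subunit of mTORC2, Deptor, an inhibitor of mTOR, and Depdc5, a subunit of the GATOR1 complex that restrains mTORC1. The Igf1r region over exon 20 of 21 held 137 tags in βRapKO replicate 1 and 56 in replicate 2, so the libraries differed by more than 2-fold. Rictor held 55 and 45, Deptor 36 and 34 and Depdc5 30 and 31. Igf1r also had 2 WT-only regions, and Deptor and Depdc5 had 1 each, while Rictor had none. Rptor, the deleted gene, had 36 merged regions, of which 13 were called in all 4 libraries, 2 were WT-only and none was βRapKO-only.

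Among 17 genes of the DNA methylation machinery, Dnmt1 (5.88%) had a βRapKO-only region and 2 genes (11.8%) had a WT-only region, beside 8.25% and 19.2% of all genes. By regions the shares were 1.05% and 2.11%, beside 1.59% and 4.40% at all protein-coding genes. The Dnmt1 region, on chromosome 9 from 20931505 to 20933198 over exon 10 of 39, held 81 and 77 tags, 2.77 and 2.64 CPM, with scores of 86.23 and 60.61. Dnmt3a had 9 merged regions, 4 of them called in all 4 libraries and none βRapKO-only.

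In the other lists a βRapKO-only region was found in 6 of 24 calcium channel genes, 8 of 42 collagens, 5 of 42 imprinted genes, 10 of 86 potassium channels, 9 of 80 developmental transcription factors, 9 of 90 cadherins and protocadherins and 2 of 29 Wnt ligands and receptors. It was found in 8 of 343 zinc finger genes (2.33%) and 7 of 362 chemoreceptor genes (1.93%). Of the Hox genes 1 had a merged region and none a βRapKO-only region. In each of these lists but Hox more genes had a WT-only region, from 12 of 24 calcium channels to 21 of 362 chemoreceptors. The same held over all genes with a region, of which 8.25% had a βRapKO-only and 19.2% a WT-only region. Longer genes hold more merged regions, so the lists also differ in how many regions a gene could have. By regions, the βRapKO-only share was 2.61% for calcium channels, 1.74% for imprinted genes and 0.721% for zinc finger genes, beside 1.59% at all protein-coding genes. For chemoreceptors it was 1.51%, so by regions they were close to all genes. The share was 1.91% for developmental transcription factors, 1.67% for cadherins and protocadherins, 1.46% for potassium channels and 1.09% for Wnt ligands and receptors. Of the 499 merged regions at collagens, 10 were βRapKO-only. Among imprinted genes, Sgce had 2 regions with 67 and 58 and with 49 and 46 tags, and Snrpn, which encodes a splicing protein and is imprinted in neurons and other tissues, had 1 with 53 and 70 tags.

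The 2 βRapKO libraries differed at some of the listed genes and were close at others. Kcnab2, a potassium channel beta subunit gene, held 112 and 62 tags over exon 2, and a second region there held 77 and 74. A 4648 bp region in an intron of Cdh23 held 95 tags in βRapKO replicate 1 and 205 in replicate 2. Of the collagens, Col4a2, a basement membrane collagen, had 2 regions with 78 and 74 and with 55 and 62 tags.

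The tags of regions beside the βRapKO-only regions were not counted by the rule, and they are given here for both genotypes. They are not independent of the calls, since the caller took its background from the surrounding 10000 bp. Tags of a neighbour within 5 kb could therefore enter the background against which a βRapKO-only region was called or missed. A region called in all 4 libraries lay within 5 kb of 830 βRapKO-only regions (28.9%), giving 826 separate neighbours. Median CPM of the neighbours was 2.27 in each WT library, 2.05 in βRapKO replicate 1 and 2.16 in replicate 2. Over all 72519 4-library regions the medians were 2.38 and 2.36 in WT and 2.22 and 2.37 in βRapKO. The median log2 fold-change of βRapKO over WT was −0.084 beside the βRapKO-only regions, −0.037 beside WT-only regions and −0.059 over all. All 3 medians lay below 0 under this scaling by library size. Scaling by the sum of tags in peaks turned these medians to 0.079, 0.13 and 0.10, and relative to all regions the neighbours of βRapKO-only regions stood at −0.025 under both scalings. Under the replicate block their median was −0.083. No set test was made on the neighbours.

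None of the 72519 4-library regions passed an FDR under 0.05 with a fold-change above 1.5 in edgeR's quasi-likelihood test, higher (0%) or lower (0%) in βRapKO, and DESeq2 also gave 0. At an unadjusted p under 0.05, edgeR gave 4226 regions and DESeq2 941. Among the 826 neighbours, 13 were higher and 39 lower in βRapKO at that level, 1.57% and 4.72% of them, beside 1.90% and 3.93% of all 4-library regions. The split depended on the scaling: of all 4-library regions at that level, 1375 of 4226 were higher in βRapKO with library sizes, 2164 of 3934 with TMM and 584 of 941 with DESeq2. Among the neighbours, 18 were higher and 25 lower with TMM, and 7 were higher and 3 lower with DESeq2. As nothing states that libraries came from separate animals, these p-values measure only the spread between these samples.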

How the data were processed

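Islet MeDIP-seq peaks of 2 WT and 2 βRapKO libraries, grouped by the sample labels, were analysed. The authors aligned 50-cycle reads to mm10 with Bowtie2 2.2.5. Peaks were called per library without input, by MACS 1.4.2 in the file headers and 0.14.2 in the submitters' processing notes, at p 1e-05 and with 1 tag kept per position. Each deposited peak has an unscaled count of tags, a score and a ratio, the fold enrichment over the local background. A deeper library passes the cutoff with weaker enrichment.

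Peaks on chromosomes 1 to 19 sharing at least 1 bp were merged, and the tags of each library's own peaks in a region were summed. The stretch counted could thus differ in width between libraries. Median peak width ran from 938 bp in WT replicate 2 to 1150 bp in βRapKO replicate 2. Genes were taken from GENCODE M21 and sequence from GRCm38.p6, with soft-masked bases as repeat. No peak (0) ended past a chromosome of that build. Exon numbers refer to 1 principal transcript for each gene. The 4-library regions were tested by edgeR 4.0.16 in R 4.3.3 (quasi-likelihood, library sizes only, Benjamini-Hochberg), tested beforehand on simulated data, with DESeq2 1.42.0 as an alternative. Intervals were exact, took regions as independent and cover sampling of regions only, not the spread between libraries. Python 3.11.15, pandas 2.3.3, SciPy 1.17.1 and NumPy 2.4.6 served for the rest.

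The members, gene lists and tests were chosen with earlier results of these data known. Named were the 10 regions of highest mean CPM, the 10 over start windows and the 5 outside genes of highest lower score, the 5 densest in CpG, up to 4 genes per list, up to 10 genes with 3 or more regions, regions at the limits of the rule, and Dnmt3a and Rptor. The text gives some of these by number or range, and not every one is reported here. The Pck1 promoter was picked after its values were seen. The labels do not say whether libraries of the same number belong together. Their deviations from the group means correlated at 0.047 over 72519 regions. This value reads only tag counts and cannot settle the question, and the main fit did not pair the libraries.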

Additional observations from a re-analysis of the deposited data

How the results depend on the processing

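The βRapKO-only regions numbered 2381 to 2947 with a 50% overlap, a 1000 bp gap or X and Y added, but 1120 with scores of at least 100, of which 1077 overlapped none of the 2876 (WT-only 4682, genes 579, 1.58 CpG sites per 100 bp, 5.18% over start windows, 42.9% outside genes). With equal numbers of peaks they were 4830 (WT-only 4503, genes 2115, 1.43 CpG sites per 100 bp), so the order of the genotypes turned. With a 1000 bp gap the median was 1.38 CpG sites per 100 bp. Leaving out 1 library gave 5933 to 12076 βRapKO-only regions (without WT replicate 1 and without βRapKO replicate 2), 15407 to 31170 WT-only regions, 2525 to 4243 genes, 1.39 to 1.497 CpG sites per 100 bp and 3.47% to 4.27% over start windows. A start window of 1 kb upstream to 100 bp downstream held 2.29%. The median CPM of 1.34 became 0.656 over all tags, 4.44 over the tags in peaks and 1.97 with scores of at least 100.

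The median log2 fold-change of the neighbours was −0.022 with TMM, 0.079 with tags in peaks and −0.18 per kb of peak, and −0.13 to −0.048 with 1 library left out. Under the replicate block it was −0.083, and the block changed no call: 0 regions passed in it, as in the TMM, DESeq2, 50-tag and left-out-library fits. The causes of these differences were not tested. The regions held a median of 38 and 39 tags, the part of depth in the calls was not tested, and a region without a call has no tags to compare.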
